A study of Rattus norvegicus with 20 samples.

Results

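The brain and the left ventricle of unstressed control rats were compared. The comparison used 10 of the 20 libraries of the series, and its members were chosen by their labels, not by any measured value. These were the libraries C1brain to C5brain and C1LV to C5LV, so that 5 rats each gave 1 brain library and 1 left ventricle library, and the shared number in the name links the libraries of a rat. All were male Sprague-Dawley rats, an outbred laboratory stock, with a body weight between 250 and 300 g. They carried no transgene and were the controls of a model of stress cardiomyopathy (SCM), in which other rats were immobilized for 6 hours over 7 days. Age and the part of the brain that was sampled are not given in the sources used here. The 10 libraries of the SCM rats served only as a second, separate set of animals in which the same contrast of tissues could be read.

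The left ventricle is the main pumping chamber of the heart. Its muscle cells, the cardiomyocytes, are packed with contractile filaments and with mitochondria, and they share the wall with endothelial cells, fibroblasts and smooth muscle. The brain holds neurons of many kinds together with astrocytes, oligodendrocytes, microglia and vessel cells, and brain tissue is known for the breadth of the genes it transcribes. A tissue with few highly specialised products can devote much of its messenger RNA to them, which is measured as the concentration of the transcriptome.

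RNA sequencing counted reads on 24160 features, namely 23760 with Ensembl rat gene identifiers and 400 loci with XLOC identifiers. Total counts ranged from 25892951 to 30912557 in the control brain and from 27547756 to 36251990 in the control left ventricle. Levels are given as CPM, the count a feature would have in a library of 1000000. A count of 3 in the smallest library equals 0.116 CPM, which was taken as the smallest level that the depth can show. No symbol could be assigned to an identifier here, so the tissue labels were not checked against marker genes, and at most 2 identifiers are printed for each direction. Because whole tissue was sequenced, a lower count cannot be told apart as fewer cells of a type or less RNA per cell. A long transcript also collects more reads than a short one, and feature lengths were not used, so shares compared between features are shares of reads.

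Transcripts of the left ventricle were concentrated in far fewer features than those of the brain. The number of features that together held 50% of the counts was 1114, 1060, 1032, 1034 and 1146 in the brains of rats 1 to 5, and 140, 173, 165, 104 and 171 in their left ventricles. The lowest brain was far above the highest ventricle, and the means were 1077 ± 50.7 (SD, n = 5) and 151 ± 29.2 (SD, n = 5). The 100 most abundant features of each library took 20.3% ± 0.683 of the counts in the brain and 46.7% ± 1.88 in the left ventricle (SD, n = 5 each). The effective number of features, the exponential of the Shannon entropy of the count shares, was 4508 ± 191 in the brain and 1011 ± 118 in the left ventricle (SD, n = 5 each), a ratio of 4.46. Each of these differences went the same way in 5 of 5 rats. An exact two-sided permutation test over the rats gave p = 0.0625 for each, which is the smallest value that this test can give with 5 pairs, so the test cannot pass 0.05 here. When the rats were not paired, the exact permutation test gave p = 0.00794, the smallest value for 5 against 5. That version ignores that both tissues came from the same rats, so it does not match the design.

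**Figure D1:**
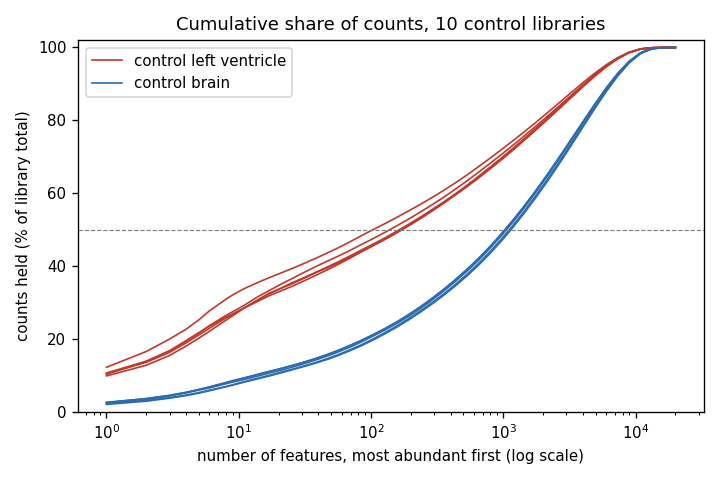
Cumulative share of counts (vertical axis, percent of the library total) held by the most abundant features (horizontal axis, number of features, log scale), 1 line for each of 5 control brains (blue) and 5 control left ventricles (red), with a dashed line at 50%. The left ventricle lines cross 50% between 104 and 173 features and the brain lines between 1032 and 1146.

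More features were also seen in the brain. At least 1 count was found for 19052 ± 105 features per brain library and for 16915 ± 201 per left ventricle library (SD, n = 5 each), higher in the brain in 5 of 5 rats (exact paired permutation test, p = 0.0625). A level of 1 CPM or more was reached by 14599 ± 94.6 features in the brain and by 12499 ± 78.3 in the left ventricle (SD, n = 5 each). At 100 CPM or more the numbers were 2291 ± 24.2 and 1325 ± 55.1 (SD, n = 5 each), on the scale of library totals. With 8 features that were among the 10 most abundant of both tissues left out of the totals, these numbers were 2506 ± 8.07 and 1875 ± 30.8 (SD, n = 5 each), so the gap was smaller and the brain was still higher in 5 of 5 rats. Over the 10 libraries, 18482 features had a count in both tissues, 2926 in the brain alone and 822 in the left ventricle alone. Most of those seen in a single tissue were near the floor, with a median of 1.2 counts per brain library and 0.8 per left ventricle library.

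The heads of both transcriptomes were largely the same features. Of the 10 most abundant features in each tissue, 8 were shared, and the 8 stood in the same order in both. Together they took 6.66%, 7.54%, 7.73%, 7.98% and 6.09% of the counts in the brains of rats 1 to 5. In the left ventricles they took 26.2%, 25.6%, 25.1%, 30.9% and 24.6%, so the tissues did not overlap and the mean in the left ventricle was 3.68 times that of the brain (exact paired permutation test, p = 0.0625). Each of the 8 had a larger share in the left ventricle, by 2.34 to 4.52 times. The first of them, ENSRNOG00000034234, had the highest mean share in both tissues. It took 2.24%, 2.47%, 2.60%, 2.51% and 2.02% of the counts in the brains of rats 1 to 5 and 10.3%, 10.6%, 10.4%, 12.2% and 9.84% in the left ventricles. The left ventricle of rat 4 was the highest and no ventricle came near the brains. Its log2 fold change, given throughout as brain minus left ventricle, was -2.97 (standard error 0.13, adjusted p-value 3.32e-07, Benjamini-Hochberg, by the quasi-likelihood test of edgeR). That value is after scaling by the typical feature (TMM). With library totals alone, the scale of the shares above, it was -2.18.

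**Figure D2:**
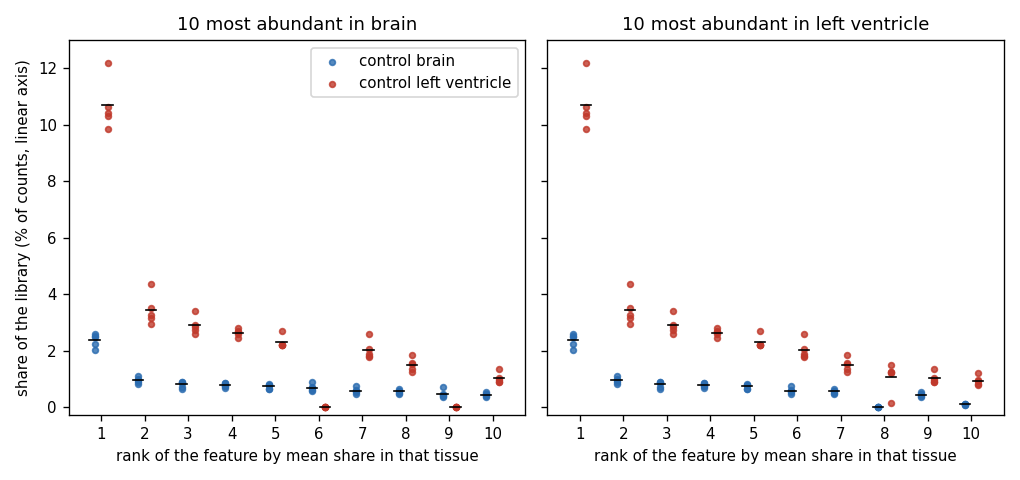
Share of the library (vertical axis, percent of counts) for the 10 most abundant features of the brain (left panel) and of the left ventricle (right panel), ordered by rank, with 1 point per control library (blue, brain; red, left ventricle) and a black line at the mean of 5. The 8 features common to both panels are higher in every left ventricle, and at rank 8 of the right panel 1 ventricle lies at 0.128% while the other 4 lie between 1.20% and 1.51%.

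Concentration of the left ventricle did not rest on these 8 features alone. With the 8 left out of every library, a choice made after seeing the data, 50% of the remaining counts were held by 1290 ± 31.8 features in the brain and by 541 ± 18 in the left ventricle (SD, n = 5 each). The 100 most abundant of the remaining features took 14.7% ± 0.111 and 28.3% ± 0.719 (SD, n = 5 each), and the direction held in 5 of 5 rats for both measures. The ratio of the effective numbers fell from 4.46 to 1.95 without the 8. Further down the ranks the lists parted, since 24 features were among the 100 most abundant of both tissues and 353 among the 1000 most abundant.

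Differences between the tissues were tested for 15909 features with the rat as a block, and were called where the adjusted p-value was under 0.05 and the log2 fold change exceeded 2 in either direction, which is a 4-fold difference. In all, 5412 features (34%) were called. Of these, 3424 features (21.5% of those tested) were higher in the brain and 1988 (12.5%) were higher in the left ventricle. Without a limit on the fold change, 6780 (42.6%) and 5904 (37.1%) had an adjusted p-value under 0.05, and 3225 features did not. The middle of the range was close to level, with a median log2 fold change of 0.12, a lower quartile of -0.96 and an upper quartile of 1.59. The tails were uneven. Past a log2 fold change of 4 there were 2045 features higher in the brain and 591 higher in the left ventricle. Brain and left ventricle libraries did not overlap for 6194 features (38.9%) with the brain above and for 5188 (32.6%) with the left ventricle above.

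The balance of calls depended on how the libraries were scaled and on the filter on low counts. Scaling by the typical feature with TMM gave factors from 1.28 to 1.36 for brain libraries and from 0.713 to 0.787 for left ventricle libraries. With library totals alone, the median log2 fold change of all features moved up by 0.79 to 0.91, and 79.6% of calls were higher in the brain, compared with 63.3% after TMM. Among features with at least 10 counts in every library of both tissues, 1345 were higher in the brain and 1321 in the left ventricle. This filter by its construction removes features that are near 0 in either tissue.

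Calls also changed with the level of the feature. Under 1 CPM, as the mean of all 10 libraries, 34.5% of 1277 features were higher in the brain and 15.9% were higher in the left ventricle. Between 1 and 10 CPM the shares of 4310 features were 29.0% and 13.6%. Between 10 and 100 CPM the shares of 8452 features were 16.1% and 9.35%. Among the 1870 features at 100 CPM or more the order turned after TMM, with 19.8% higher in the brain and 21.8% higher in the left ventricle, but not with library totals alone, which gave 27.0% and 13.7%.

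**Figure D3:**
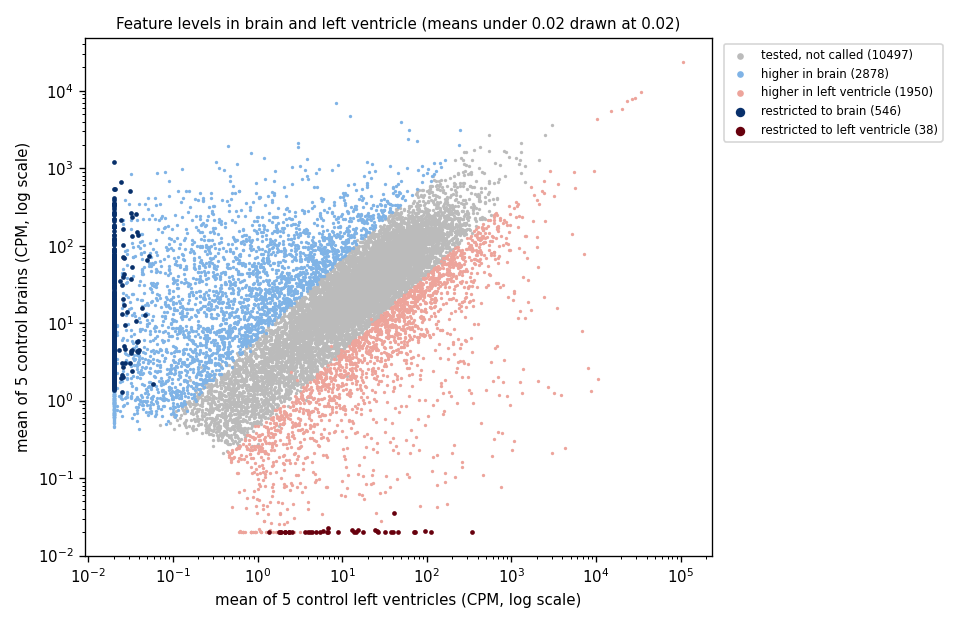
Mean level in 5 control brains (vertical axis, CPM, log scale) against mean level in 5 control left ventricles (horizontal axis, CPM, log scale) for 15909 features, with means under 0.02 drawn at 0.02. Grey points were not called, light points were called in a tissue and dark points were restricted to it, with 546 dark blue points at or near the left edge and 38 dark red points along the bottom.

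Counts were divided between the called features in opposite ways. The features higher in the brain held 28.9% ± 0.154 of brain counts and 1.06% ± 0.0613 of left ventricle counts (SD, n = 5 each). Those higher in the left ventricle held 61.1% ± 1.27 of left ventricle counts and 11.9% ± 0.716 of brain counts (SD, n = 5 each), although they were fewer. Without the 8 common features, a choice made after seeing the data, those higher in the left ventricle held 47.1% ± 0.553 of the remaining left ventricle counts and 5.06% ± 0.0552 of the remaining brain counts (SD, n = 5 each). Features tested and not called held 59.1% ± 0.626 in the brain and 37.8% ± 1.22 in the left ventricle (SD, n = 5 each). These shares describe the features with the same libraries that chose them. In the SCM rats, which took no part in the choice, the brain features held 28.1% ± 1.07 of brain counts and 0.969% ± 0.0383 of left ventricle counts, and the left ventricle features held 12.8% ± 1.36 and 62.8% ± 0.892 (SD, n = 5 each).

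**Figure D4:**
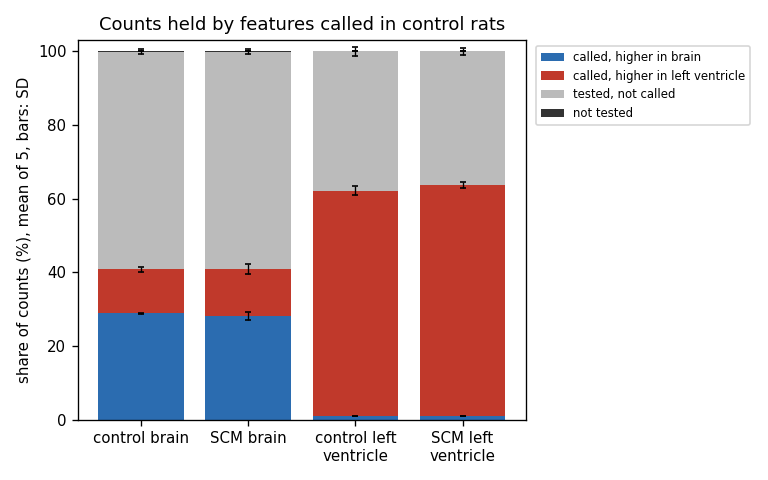
Share of counts (vertical axis, percent, starting at 0) held by 3424 features higher in control brain (blue), 1988 higher in control left ventricle (red), 10497 tested and not called (grey) and 8251 not tested (black, under 0.1%), as stacked means of 5 libraries with SD bars. The control and SCM columns of a tissue stand side by side, with red at 61.1% and 62.8% in the left ventricle and blue at 28.9% and 28.1% in the brain.

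A feature was called restricted to a tissue when it reached 1 CPM, on the scale of library totals, in all 5 of its libraries. It also had to have at most 3 counts in each of the 5 libraries of the other tissue. By this rule 546 features were restricted to the brain and 38 to the left ventricle. The brain-restricted features had a median level of 8.42 CPM, 48 of them reached 100 CPM, and together they took 2.06% ± 0.0351 of brain counts (SD, n = 5). The left ventricle-restricted features had a median of 7.91 CPM, 2 of them reached 100 CPM, and together they took 0.112% ± 0.00547 of left ventricle counts (SD, n = 5). The median levels were close while the numbers of features were far apart. Of the 546, 284 had no count in any left ventricle library, and of the 38, 20 had no count in any brain library.

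Among the brain-restricted features ENSRNOG00000025235 had the highest level. It stood at 1367, 1104, 1081, 1076 and 1306 CPM in the brains of rats 1 to 5, with 1, 2, 0, 0 and 0 counts in their left ventricles. The mean in the brain was 1187 ± 138 CPM (SD, n = 5), and its ratio to the 3 counts of the left ventricle was 62026, with an exact 95% Poisson interval from 21224 to 300769 that covers counting error only. The counts were pooled over the 5 left ventricles for this ratio, and each library by itself held fewer than 3 counts. Set against 3 counts in a left ventricle library (0.109 CPM), the ratio was 10898. The highest left ventricle-restricted feature stood at 423, 281, 347, 260 and 411 CPM in the left ventricles of rats 1 to 5, and the 5 brain libraries held 1 count between them. Its mean was 344 ± 73.7 CPM (SD, n = 5), so it lay well under the leading features of the left ventricle.

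A rule on absolute counts weighs on features of very high level. At 100 CPM or more in every left ventricle, 62 features were at least 100 times higher there than in the brain, and the median feature of these had a mean of 33.2 counts per brain library, so that only 1 met the limit of 3 counts. In the other direction 254 features at 100 CPM or more in every brain were at least 100 times higher there, with a median of 9.3 counts per left ventricle library, and 43 met the limit. With restriction defined by a ratio of 100 in place of the limit on counts, 820 features were restricted to the brain and 120 to the left ventricle, and with a ratio of 1000 the numbers were 127 and 28. These ratio rules were added after seeing the data, and the excess in the brain held under both, at 6.83 and 4.54 times, where the rule on counts gave 14.4 times. The excess was not seen at the highest levels, where 10 of the 64 features at 1000 CPM or more in every left ventricle were at least 1000 times higher there, and 5 of the 56 in the brain, a difference that was not tested. Whether the low counts come from cells of the tissue or from reads of other libraries was not tested.

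The leading case was ENSRNOG00000016983, singled out after its values were seen. It stood at 12238, 12243, 15050, 11965 and 1278 CPM in the left ventricles of rats 1 to 5, where it ranked eighth. In the brains it had 70, 52, 66, 28 and 54 counts, or 0.956 to 2.70 CPM. Rat 5 was therefore 10.1 times below the mean of the other 4 left ventricles, while its brain lay within the range of the others. The log2 fold change was -12.95 (standard error 0.71, adjusted p-value 9.87e-07, edgeR). In the 5 SCM left ventricles the level ran from 8925 to 13625 CPM, so no SCM library was as low as that of control rat 5.

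The most abundant feature higher in the brain was ENSRNOG00000016516, also singled out after its values were seen. It stood at 6701, 5992, 6948, 5744 and 8825 CPM in the brains of rats 1 to 5 and at 14.1, 9.69, 8.71, 5.95 and 4.3 CPM in their left ventricles. It was the sixth feature of the brain by mean share and was highest in the brain of rat 5. Its log2 fold change was 8.92 (standard error 0.37, adjusted p-value 2.27e-07, edgeR).

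**Figure D5:**
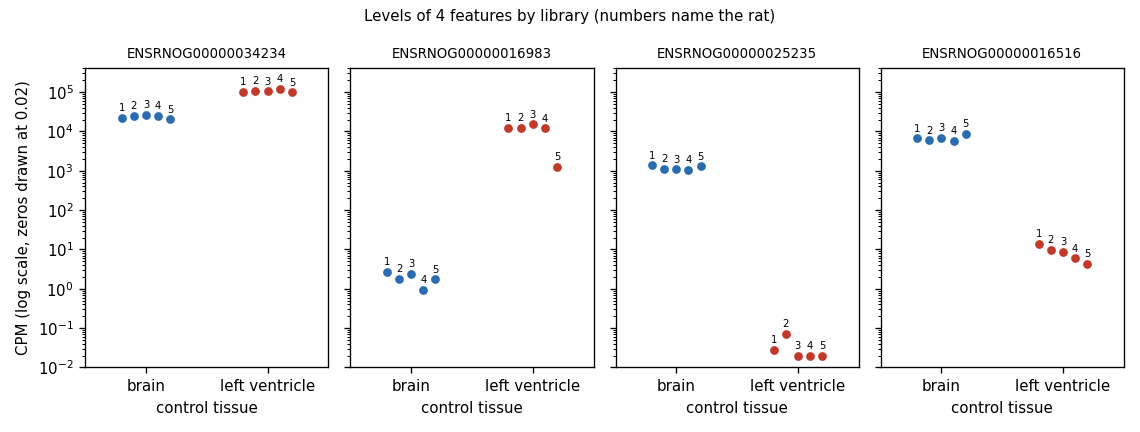
Level of 4 features (vertical axis, CPM, log scale, zeros drawn at 0.02) in the control brains (blue) and control left ventricles (red), 1 point per library with the number of the rat. Tissues do not overlap in any panel, and the left ventricle of rat 5 lies at 1278 CPM for ENSRNOG00000016983 where the other 4 lie at 11965 CPM or more.

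Shared features made up most of both transcriptomes. A level of 1 CPM in all 10 libraries, on the scale of library totals, was reached by 11076 features. These were 79.8% of the 13881 features that reached it in every brain and 95.3% of the 11617 that reached it in every left ventricle. The shared features held 87.2% ± 0.0299 of brain counts and 93.8% ± 0.618 of left ventricle counts (SD, n = 5 each). Among them 3567 (32.2%) had an absolute log2 fold change under 0.5 and are called level here by size alone, since 1385 of them had an adjusted p-value under 0.05 (edgeR). Another 23.8% lay between 0.5 and 1, and 25.4% between 1 and 2. Past both limits, 813 shared features (7.34%) were higher in the brain and 1248 (11.3%) were higher in the left ventricle, beside 21.5% and 12.5% of all features tested. The shared set by its construction leaves out features near 0 in either tissue, so nothing is read from these shares against those of all features. With library totals alone in place of TMM, 1660 shared features were higher in the brain and 606 in the left ventricle, the reverse order. The level features held 22.3% ± 0.368 of brain counts and 13.2% ± 0.444 of left ventricle counts (SD, n = 5 each). The most abundant of them had a mean of 3556 CPM in the brain and 2995 CPM in the left ventricle, a log2 fold change of -0.48 after TMM and an adjusted p-value of 0.0674 (edgeR). Of the 5 most abundant, 1 passed the test, with a log2 fold change of -0.44 and an adjusted p-value of 0.00951 (edgeR).

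Of the 400 XLOC loci, 227 could be tested. Of these, 76 (33.5%) were higher in the brain and 32 (14.1%) in the left ventricle, beside 21.5% and 12.5% of all features tested. Their median log2 fold change was 0.68. Features of all kinds under 1 CPM, as the mean of all 10 libraries, gave 34.5% and 15.9%, with a median of 0.66. The loci were not compared at matched level, so no excess in the brain is read from them. Among the restricted features, 22 of the 546 in the brain (4.03%) and 5 of the 38 in the left ventricle (13.2%) were XLOC loci, beside 400 of all 24160 features, and these shares were not tested.

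Libraries of different rats differed more from each other in the left ventricle than in the brain. Across the shared features the median SD between rats of log2 CPM was 0.13 in the brain and 0.20 in the left ventricle, and the SD was higher in the left ventricle for 74.2% of features. The common biological coefficient of variation was 0.136 in the brain and 0.204 in the left ventricle. Without rat 5 these values were 0.128 and 0.170, and in each fit that left out 1 rat the left ventricle remained higher. These are descriptions of 5 libraries a tissue and were not tested. With 1 library per rat and tissue, differences between rats cannot be told apart from those of dissection or library preparation. Among the 100 most abundant features called in each tissue, the highest library was over 2 times the lowest for 3 features in the brain and for 15 in the left ventricle, and without rat 5 for 1 and 4.

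Single libraries were set apart in some features. In the same 100 features a tissue, 7 in the brain and 13 in the left ventricle had a library past the limit for an outlier among 5, where chance gives about 1 in 20, so the number in the brain was near that of chance. Features of a library vary together, so these are not independent cases. That library was rat 5 for 5 of the 7 and for 8 of the 13, and rat 4 for 4 of the 13. Leaving out rat 5 gave 3472 features higher in the brain and 2031 higher in the left ventricle, close to the numbers from all rats.

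The distance between tissues was large beside that between rats. Over 15909 features, Pearson correlations of log2 CPM lay between 0.982 and 0.991 for pairs of brain libraries and between 0.971 and 0.989 for pairs of left ventricle libraries. They lay between 0.570 and 0.585 for the brain and left ventricle of the same rat and between 0.568 and 0.581 for those of different rats. These are correlations across features, which are not independent replicates, and the libraries share their scaling.

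The contrast was then read in the SCM rats, which are other animals. There 3526 features (22.4% of 15764 tested) were higher in the brain and 1915 (12.1%) were higher in the left ventricle. The lists had 3107 brain features in common, which are 90.7% of the control list and 88.1% of the SCM list. For the left ventricle 1693 were in common, which are 85.2% and 88.4%, and 0 features called in control rats were called in the opposite direction in SCM rats at the same limits (edgeR). Of the 3285 control brain features tested in SCM rats, 3280 had the same sign, as had 1910 of 1910 left ventricle features. In the SCM rats, 50% of the counts were held by 1014 ± 82.9 features of the brain and by 121 ± 15.7 of the left ventricle (SD, n = 5 each), again in 5 of 5 rats (exact paired permutation test, p = 0.0625).

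Fewer features met the restriction rule, a hard limit, in the SCM rats than kept their direction, which is a looser criterion. Of the 546 brain-restricted features, 382 (70.0%) met the same rule in the SCM rats, 122 reached 1 CPM in every SCM brain with more than 3 counts in some SCM left ventricle, and 42 did not reach 1 CPM in every SCM brain. Of the 38 left ventricle-restricted features, 21 (55.3%) met the rule in SCM rats, 10 had more than 3 counts in some SCM brain and 7 did not reach 1 CPM in every SCM left ventricle. At most 10 counts in every SCM library of the other tissue were found for 536 of the 546 and 36 of the 38. Every one of the 546 and the 38 had the higher mean CPM in the same tissue of the SCM rats. The tissue difference itself differed between control and SCM rats for 129 of 15675 features (0.823%, edgeR, adjusted p-value under 0.05), and for none of the 4 printed features, with adjusted p-values from 0.565 to 0.983 (edgeR).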

How the data were processed

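Libraries were made with a NEBNext Ultra RNA kit, per the labels. The authors deposited raw read counts per feature for 20 libraries, without pooling, and the submitters' processing notes name HISAT2, StringTie, SAMtools and the build mRatBN7.2. The annotation and strand setting are not given in the sources used here, so reads of overlapping or near-identical genes may be split or dropped.

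The 10 control libraries were grouped by their titles. The paper states that both tissues came from the same sample, and the number in the title was read as the rat. Deviations from the tissue means correlated between same-rat libraries at 0.0989 to 0.147. The mean of other pairs was -0.0301, which centering on the tissue means pulls under 0. Handling shared by libraries of the same number was not told apart from the rat. Each of the 5 brains correlated best with its own left ventricle. The rat was therefore a block in edgeR 4.0.16 (R 4.3.3), with TMM, filterByExpr (minimum count 10, minimum total 15), the quasi-likelihood test and Benjamini-Hochberg adjustment. The SCM libraries were fitted alike, and the interaction over all 20. Plain CPM used library totals, and log2 CPM used TMM and a pseudocount of 0.5. Single values were compared by exact permutation over rats. The fit was tested on simulated data. Squared count differences of replicate pairs were at least 11.6 times the sampling variance, so no library looked deposited more than once. Separate rats are the replicates.

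Alternatives were RLE and upper-quartile normalization, totals alone, DESeq2 1.42.0, limma-voom 3.58.1, other filters and limits, no block, thinning and leaving out each rat. The comparison and its lists were chosen with earlier results of these data known. Genes to be named were the most abundant, the restricted and the shared of highest level, and list members. Since 0 identifiers were linked to symbols, gene lists, marker checks, length scaling, mitochondrial genes and sequences were not used here, and 4 identifiers are printed.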

Additional observations from a re-analysis of the deposited data

Results flagged for a closer look

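A library lay far from the rest of its tissue in 3 of the 18 groups of 5 libraries examined, where chance marks about 1 in 20 groups. The last of the 3 was included because of its low library, so their number is not set against chance. In rat 4, the 10 most abundant features of the left ventricle took 33.0% of the counts, while the other left ventricles gave 27.5% to 28.4%. Without that rat, 3470 features were higher in the brain and 1973 in the left ventricle. In the brain of rat 5, 19237 features had a count, while the other brains gave 18972 to 19025. That library had the highest total of the control brains, 30912557. With all libraries thinned to the smallest total, the brains gave 18905 to 19083. ENSRNOG00000016983 stood at 1278 CPM in the left ventricle of rat 5 and between 11965 and 15050 CPM in those of the other rats, and it was picked after its values were seen. The cause of these values was not tested.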

How the results depend on the processing

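Features higher in the brain numbered 3424 and in the left ventricle 1988. Leaving out 1 rat gave 3429 to 3472 and 1968 to 2031, and glmTreat gave 2907 and 1511. With totals alone the numbers were 4615 and 1181, with features of 10 or more counts throughout 1345 and 1321, with a log2 limit of 1 4930 and 3786, and with no limit 6780 and 5904. The counts moved by design where the limit or the features tested changed, and for totals alone by the shift of all features. Without the replicate block the numbers were 3368 and 2000, and in SCM rats, as with RLE, they also stayed within 1.5 times. Restricted features were 546 in the brain and 38 in the left ventricle. The numbers were 300 and 19 at 5 CPM, 61 in the left ventricle at 0.5 CPM, and 284 and 20 with 0 counts allowed. They were 1040 and 108 with at most 10 counts, 1757 and 246 with at most 30, 820 and 120 at a ratio of 100, and 127 in the brain at a ratio of 1000, the last 4 rules being added later. Leaving out 1 rat gave 602 to 637 and 43 to 52. The brain held more in all of these. Each used CPM on library totals, and no other scaling was tried for the restricted features. Concentration kept its direction under thinning, without the 8 common features and without each rat. Unpaired, the exact permutation p was 0.00794 and passed 0.05, but that version ignores the pairing by rat and does not match the design. The brain minus left ventricle differences were -20.4 and -26.4 percentage points in the share of the 10 and 100 most abundant features. They were 927 features for 50% of the counts, 3497 effective features and 2137 detected features. Alternatives that need mitochondrial genes or feature lengths were not run. In a single library, levels under 0.116 CPM were taken as beyond what the depth can show.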
